A study of Mus musculus with 16 samples.

Results

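Described here are 10 genes of the cytosolic heat shock system in mouse somatosensory cortex, chosen by name from the 24421 genes of the deposited tables. They are the HSP70 genes Hspa8, Hspa1a and Hspa1b, the HSP70 cofactors Hsph1, Hspbp1 and Dnajb1, the HSP90 genes Hsp90aa1 and Hsp90ab1, the small heat shock protein gene Hspb1 and the transcription factor gene Hsf1. All 10 had reads in all 12 libraries and were tested in every comparison. RNA-seq was performed on mice labelled male and aged 2 to 3 months, of a C57BL/6 wild-type (WT) line or of an AcPb-/- line. The mice were the homozygous offspring of 5 to 7 generations of breeding. AcPb is the neuron-specific form of the interleukin-1 receptor accessory protein, a co-receptor of the interleukin-1 family. Sleep disruption (SD) by gentle handling ran for 8 h from zeitgeber time (ZT) 20 to ZT4, control mice were left undisturbed, and cortex from both was collected at ZT4. The 4 groups, undisturbed and SD mice of both genotypes, had 3 libraries each, and the other 4 of the 16 labelled mice were not analysed here. The comparisons address whether the RNA of the chaperone system differed after sleep loss and whether that difference depended on AcPb.

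Heat shock proteins are molecular chaperones that bind unfolded or partly folded proteins and keep them from aggregating. HSP70 proteins work in a cycle driven by ATP, in which J-domain proteins such as DNAJB1 deliver the client and start ATP hydrolysis, and nucleotide exchange factors such as HSPH1 and HSPBP1 release the nucleotide and, with it, the client. HSP90 proteins take over clients such as kinases and steroid receptors at a later stage of folding. The transcription factor HSF1 is activated when unfolded proteins build up and drives chaperone genes through heat shock elements, repeats of the letters GAA and TTC in their promoters. Hspa8, Hsp90ab1 and, in brain, Hsp90aa1 are made at high levels without stress, while Hspa1a, Hspa1b and Hspb1 are the classical inducible genes.

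The libraries held 26504840 to 41615582 reads on genes in the undisturbed mice and 58770286 to 71857505 after SD, so depth did not overlap between the 2 conditions and its part in the results cannot be told apart from SD by design. With every library thinned to the smallest total, the calls given below for the 10 genes stayed at 6 in each genotype. Of the 6 control libraries, 4 carried 25352 to 39358 Xist reads and 0 to 2 reads of Y-linked genes although all mice are labelled male, namely undisturbed WT replicates 2 and 3 and undisturbed AcPb-/- replicates 4 and 5. The 8 other libraries had 5 to 13 Xist reads and 5105 to 10593 reads of Y-linked genes. By these reads the 4 libraries are female, against their label. All 4 are controls, so sex by these reads is in part confounded with SD. Il1rap, the gene that encodes AcPb, had normalized counts of 1476 to 1519.9 in undisturbed WT and 1515 to 1647 in undisturbed AcPb-/- mice, and 1729 to 1920.4 and 1923 to 2062 after SD, but its reads cover the other isoforms too and so do not check the genotype. The markers of cortical neurons were all present in every group. The replicate 4 library of AcPb-/- after SD had a summed normalized count of 20362 for 7 choroid plexus and meningeal markers, against 3058 to 3802 in the 6 undisturbed and 1952 to 2912 in the other 5 SD libraries, and without it 6 of the 10 genes were still called in AcPb-/- mice.

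Where the genes lie was taken from GENCODE M21 on GRCm38, the assembly that mm10 denotes. Hspa8 spans chr9:40800984-40810087 on the plus strand, Hsph1 chr5:149614287-149636376 on the minus strand and Hspbp1 chr7:4660521-4685068 on the minus strand. Hsp90aa1 (chr12:110690605-110702728) and Hsp90ab1 (chr17:45567775-45573271) are both on minus strands, and Hsf1 (chr15:76477422-76501913), Dnajb1 (chr8:83608193-83612653) and Hspb1 (chr5:135887919-135889563) are on plus strands. Hspa1a (chr17:34969190-34972156) and Hspa1b (chr17:34956436-34959238) are neighbours on the minus strand, each with 1 exon in the merged annotation. Their transcripts share much sequence: of all stretches of 100 bases, 47.1% of those of Hspa1a occur in Hspa1b and 49.9% the other way. Such a stretch alone does not assign a read to 1 gene. Counting the transcripts of any other gene, on either strand, the share was 56.5% for Hspa1a and 49.9% for Hspa1b. The corresponding share was 44.0% for Hspb1, 38.0% for Hsp90aa1 and 28.5% for Hspa8, mostly with processed pseudogenes, and 0.0% for Hsph1, Hspbp1, Dnajb1, Hsp90ab1 and Hsf1. Hspa1a also overlaps Gm20481 on the opposite strand, and whether the counting used strand is not given in the sources used here.

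Promoter sequences of RefSeq on GRCm38.p6 were at hand for 6 of the 10 genes and were searched on both strands, in the 250 bases before each start, for the paired heat shock units GAANNTTC and TTCNNGAA, each of which reads the same on the other strand. Paired units occur in 12.8% of the 32851 promoter windows of the table. They were found in Hspa1a, Hspa1b, Hspb1 and Hsph1 and not in the windows of Hspbp1 or Dnajb1, which says only that these letters are not there. Runs of 3 such units in alternation, with the same spacing, occur in 0.47% of all windows and were in none of the 6. The windows of the inducible pair are shown whole because these genes are nearly the same up to 250 bases before the start, differing at 3 positions counted from the 5′ end of the window, written as C44T, T47C and T249G with the base of Hspa1a first. The units of Hspb1 and Hsph1 are shown with 30 bases each, that of Hsph1 lying before the RefSeq starts but inside the longer GENCODE gene, and Hspbp1, which went the other way after SD, with the 163 bases of its window that lie before the GENCODE gene. Capitals mark the paired units, all sequences run 5′ to 3′ on the strand of the gene, and a match is a description of the letters and not evidence of binding.
Hspa1a, chr17:34972157-34972406, minus strand: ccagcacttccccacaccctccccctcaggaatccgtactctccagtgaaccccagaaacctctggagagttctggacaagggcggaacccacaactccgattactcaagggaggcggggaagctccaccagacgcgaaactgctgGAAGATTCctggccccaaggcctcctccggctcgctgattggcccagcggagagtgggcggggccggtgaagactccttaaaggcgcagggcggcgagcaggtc
Hspa1b, chr17:34959239-34959488, minus strand: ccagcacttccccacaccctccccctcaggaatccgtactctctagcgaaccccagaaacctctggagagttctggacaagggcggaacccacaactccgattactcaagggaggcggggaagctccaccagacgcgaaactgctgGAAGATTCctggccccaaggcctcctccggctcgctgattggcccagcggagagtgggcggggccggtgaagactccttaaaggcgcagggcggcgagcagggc
Hspb1, chr5:135887801-135887830, plus strand: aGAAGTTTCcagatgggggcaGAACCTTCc
Hsph1, chr5:149636351-149636380, minus strand: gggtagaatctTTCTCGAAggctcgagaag
Hspbp1, chr7:4685069-4685231, minus strand: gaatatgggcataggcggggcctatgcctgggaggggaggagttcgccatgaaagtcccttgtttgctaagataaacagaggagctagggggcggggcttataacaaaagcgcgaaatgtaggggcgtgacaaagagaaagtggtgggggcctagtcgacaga

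Per length, the levels of the 10 genes differed widely in undisturbed cortex. Levels are given in TPM, reads per base of annotated exon scaled to the same sum in every library, as mean ± SD over 3 libraries. In undisturbed WT mice Hsp90ab1 was highest at 2256 ± 121 TPM, followed by Hspa8 at 1549.7 ± 135 and Hsp90aa1 at 961 ± 36.0. The 2 exchange factors differed little by comparison, with Hsph1 at 221 ± 16.7 and Hspbp1 at 157 ± 7.22 TPM. Dnajb1 stood at 84.2 ± 7.57, Hsf1 at 26.6 ± 0.870 and Hspb1 at 19.2 ± 1.98 TPM. The inducible genes were lowest, Hspa1b at 11.8 ± 1.03 and Hspa1a at 11.5 ± 0.706 TPM, and they were the only neighbours in this order whose libraries overlapped. The length used for TPM includes the sequence that Hspa1a, Hspa1b, Hspb1, Hsp90aa1 and Hspa8 share with other genes. Whether reads from it were assigned to these genes was not tested, so their TPM, here and after SD, is less certain.

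**Figure D1:**
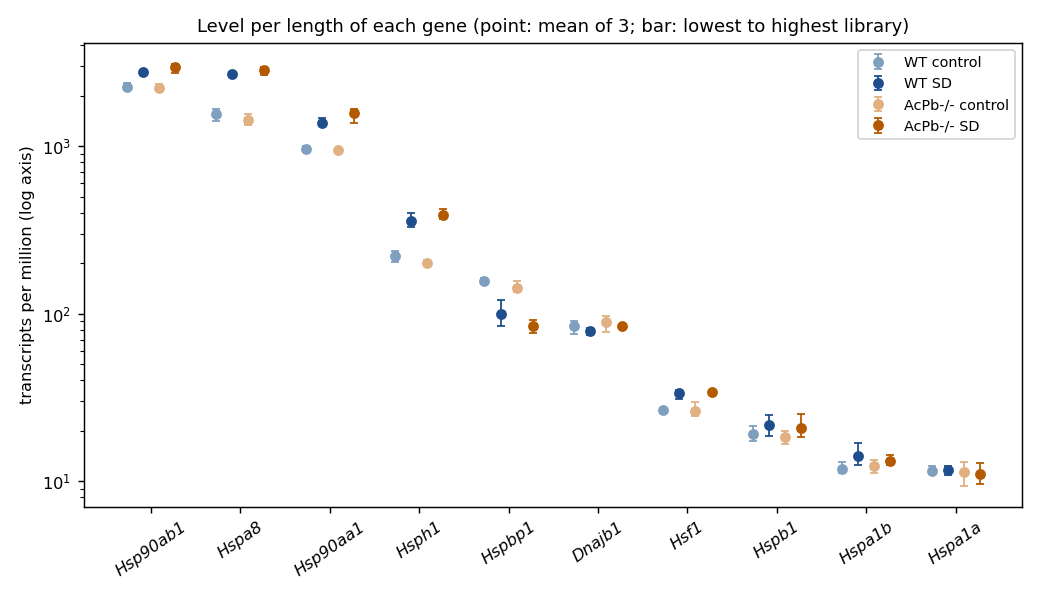
Level per length of the 10 genes in TPM on a log axis, in the order of undisturbed WT mice, with 1 color per group; points are means of 3 libraries and bars run from the lowest to the highest library. Hspa8 and Hsp90ab1 meet at the top after SD, Hspbp1 falls toward Dnajb1, and Hspa1a and Hspa1b stay at the bottom in all 4 groups.

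After SD the order of the group means was the same in both genotypes, but Hspa8 drew level with Hsp90ab1, and Hspbp1 with Dnajb1 in AcPb-/- mice. Hspa8 moved from rank 36 to rank 13 of all genes by TPM in WT mice and from 46 to 11 in AcPb-/- mice, and its libraries (2633 to 2768 TPM in WT) then overlapped with those of Hsp90ab1 (2722 to 2792 TPM). With the longest transcript as the length, Hspa8 (2785 TPM) lay above Hsp90ab1 (2479 TPM) in WT mice after SD. Hspbp1 stood at 99.6 ± 18.7 TPM in WT mice after SD and at 85.0 ± 7.64 TPM in AcPb-/- mice after SD, where its libraries (76.9 to 92.1) overlapped with those of Dnajb1 (83.3 to 85.6). Together the 10 genes took 0.385% to 0.437% of all reads in the 6 undisturbed libraries and 0.581% to 0.676% in the 6 SD libraries, with no overlap.

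SD was compared with undisturbed sleep within each genotype by limma on log2(normalized count + 1), with p-values adjusted over all genes tested and a threshold of 0.05. Hspa8, Hsph1, Hsp90aa1, Hsp90ab1 and Hsf1 were upregulated and Hspbp1 was downregulated in both genotypes, while Hspa1a, Hspa1b, Dnajb1 and Hspb1 passed the test in neither. In WT mice 6 of the 10 genes passed, 5 higher and 1 lower, where 25.4% of all 20417 genes tested did so (13.2% higher and 12.2% lower). Among AcPb-/- mice it was again 5 higher and 1 lower, where 27.4% of 20574 genes passed (14.1% higher and 13.3% lower). The 6 were also the genes whose SD and control libraries did not overlap, which held for 40.2% of all genes in WT and 42.4% in AcPb-/- mice. The median log2 fold change of the 10 genes was 0.29 in WT and 0.27 in AcPb-/- mice, against -0.0039 and 0.014 over all genes tested. In these bulk samples, more cells of a type and more RNA per cell cannot be told apart. Of 6 oligodendrocyte markers, 4 were lower after SD in WT and 1 in AcPb-/- mice, and their summed normalized count ran from 106978 to 136457 undisturbed and 86352 to 119034 after SD in WT and from 53954 to 124101 and 69595 to 104115 in AcPb-/- mice. Of 6 microglial markers, 1 was lower in WT and 3 in AcPb-/- mice, with sums of 14256 to 15598 and 13011 to 14066 in WT and 14099.6 to 14973 and 10210.3 to 12368 in AcPb-/- mice. Of the 7 choroid plexus and meningeal markers, 1 was higher and 2 were lower in WT and 1 was lower in AcPb-/- mice, and their sums given above were lower in every SD library than in every undisturbed one except in AcPb-/- SD replicate 4. Of 6 astrocyte markers, 2 were lower in WT and 1 in AcPb-/- mice, and 0 were higher. Of 9 markers of striatal neurons, 2 were lower and 0 higher in WT mice, and 0 were called in AcPb-/- mice. The striatal sums ran from 12682 to 26327 undisturbed and 15687 to 18387 after SD in WT mice. In AcPb-/- mice they ran from 13456 to 18531 undisturbed and 17477 to 23515 after SD. The median log2 fold change of the 9 striatal markers was -0.19 in WT and 0.36 in AcPb-/- mice. Cortical neuron markers, 7 in all, had 1 lower and 0 higher in each genotype. Their sums ran from 267338 to 275358 undisturbed and 274104 to 316428 after SD in WT mice. In AcPb-/- mice the cortical sums ran from 254824 to 288219 and 275077 to 311544. The part of these cell types in the results was not tested.

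**Figure D2:**
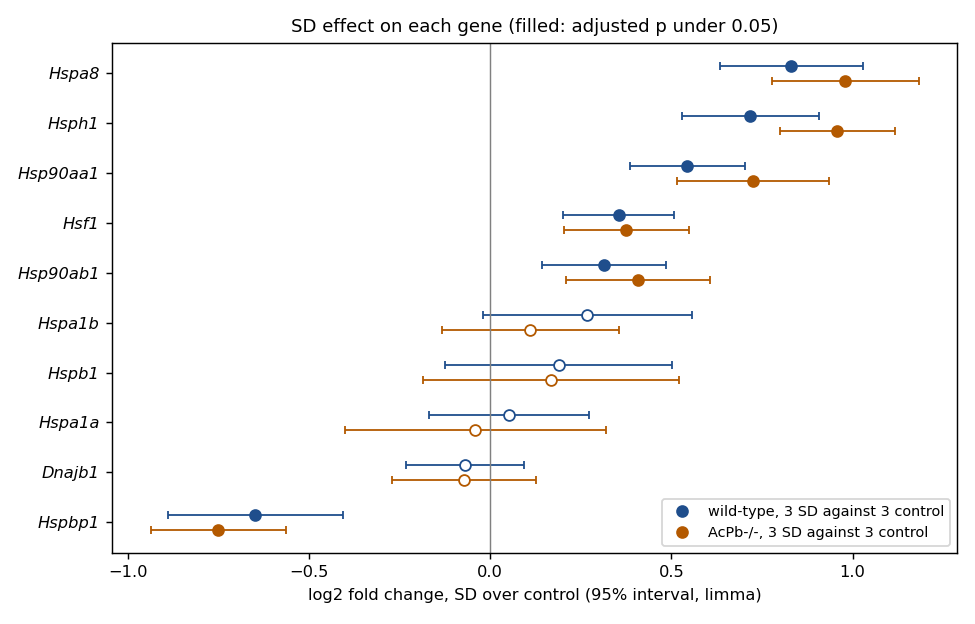
Log2 fold change of SD over control for each gene (horizontal axis) in WT and AcPb-/- mice, with the 95% interval of the limma fit; filled points passed an adjusted p of 0.05. The genes fall into 5 upregulated, 4 whose intervals include 0 and Hspbp1, the only gene with its whole interval below 0, with the same sets in both genotypes.

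Hspa8, which encodes the constitutive HSP70 protein HSC70, showed the highest fold change of the 10 genes in WT mice. In AcPb-/- mice it was nearly level with Hsph1, at a log2 fold change of 0.98 against 0.96. Its normalized counts were 72242, 59940.5 and 66599 in undisturbed WT mice and 114293, 120812 and 117770.3 after SD. The AcPb-/- mice had 65535, 62079.8 and 57314 undisturbed and 122824, 114098 and 126946 after SD. Every SD library was thus at least 1.58 times as high as every undisturbed library in WT and at least 1.74 times as high in AcPb-/- mice. The fold was 1.78 in WT, a log2 fold change of 0.83 (SE 0.089, n = 3 and 3, limma adjusted p = 0.000338). For AcPb-/- mice it was 1.97, a log2 fold change of 0.98 (SE 0.089, n = 3 and 3, limma adjusted p = 0.000610).

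The inducible HSP70 genes did not show this. Hspa1a had normalized counts of 365, 325 and 324 in undisturbed WT mice and 357, 329 and 365 after SD, and 274, 341 and 386 and then 311, 379 and 280.2 in AcPb-/- mice. The SD libraries lay within or near the spread of the controls in both genotypes. The log2 fold change was 0.051 in WT (95% interval -0.17 to 0.27, limma adjusted p = 0.740) and -0.040 in AcPb-/- mice (-0.40 to 0.32, adjusted p = 0.871). These intervals end below the lower bound for Hspa8 in the same genotype, 0.63 in WT and 0.78 in AcPb-/- mice. Hspa1b had 366, 314 and 311 in undisturbed WT mice and 477, 373 and 351 after SD, where 1 SD library stood above the others. In AcPb-/- mice Hspa1b was at 342, 313 and 376 undisturbed and 349, 398 and 363 after SD, with overlapping groups. Its log2 fold change was 0.27 (95% interval -0.019 to 0.56, adjusted p = 0.161) in WT and 0.11 (-0.13 to 0.36, adjusted p = 0.498) in AcPb-/- mice. With 177 to 708 reads a library and a large part of the transcript shared between the pair, the split between Hspa1a and Hspa1b is uncertain.

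**Figure D3:**
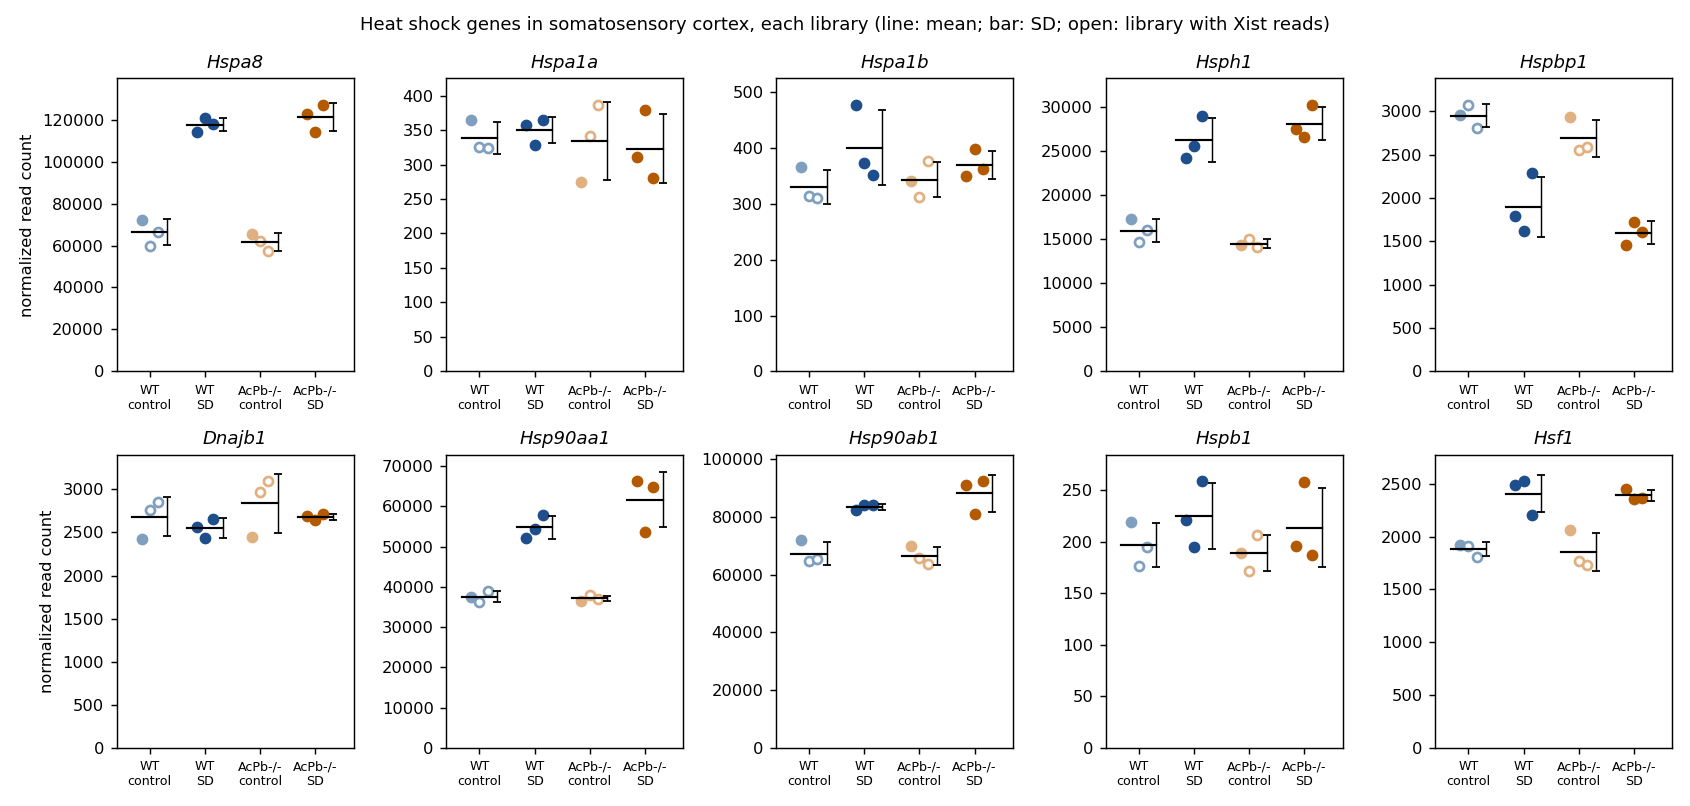
Normalized read count (12 libraries normalized together, vertical axes from 0) of each of the 10 genes by group; points are libraries, lines group means, bars SD, and open points the 4 control libraries with Xist reads. SD and control points separate for Hspa8, Hsph1, Hspbp1, Hsp90aa1, Hsp90ab1 and Hsf1 and mix for Hspa1a, Hspa1b, Dnajb1 and Hspb1.

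The 2 nucleotide exchange factors moved in opposite directions. Hsph1, an HSP110 protein that resets HSP70 and also holds unfolded clients itself, had normalized counts of 17228, 14627 and 15976 in undisturbed WT mice and 24214, 25546 and 28977 after SD. The values in AcPb-/- mice were 14286, 15059.5 and 14053 and 27529, 26521 and 30190.1. All 6 SD libraries were above all 6 undisturbed ones. Hsph1 was upregulated 1.64-fold in WT, with a log2 fold change of 0.72 (SE 0.085, n = 3 and 3, limma adjusted p = 0.000606), and 1.94-fold in AcPb-/- mice, with 0.96 (SE 0.069, n = 3 and 3, limma adjusted p = 0.000444).

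Hspbp1, which binds the ATPase domain of HSP70 and in excess inhibits its folding cycle, had normalized counts of 2961, 3073 and 2808 in undisturbed WT mice. After SD they were 1796, 1619.9 and 2289. Those of AcPb-/- mice were 2935, 2551 and 2586 undisturbed and 1461, 1724 and 1608 after SD. The highest SD library, WT replicate 4, was still below the lowest undisturbed library. The log2 fold change was -0.65 (SE 0.11, n = 3 and 3, limma adjusted p = 0.00264) in WT and -0.75 (SE 0.082, n = 3 and 3, limma adjusted p = 0.000888) in AcPb-/- mice, which left 0.639 and 0.595 of the control level. Of the genes called, Hspbp1 also varied most within a group, with a coefficient of variation of 18.2% among WT libraries after SD against 4.51% undisturbed.

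Dnajb1, the J-domain partner that is itself a classical HSF1 target, did not pass the test. It had 2425, 2758 and 2857 normalized counts in undisturbed WT mice and 2562, 2432 and 2658 after SD, and 2449, 2972 and 3093 and 2686, 2642 and 2714 in AcPb-/- mice. In each genotype the undisturbed library without Xist reads was the lowest of its group, at 2425 and 2449. The log2 fold change was -0.070 (95% interval -0.23 to 0.093, adjusted p = 0.542) in WT and -0.072 (-0.27 to 0.13, adjusted p = 0.588) in AcPb-/- mice. It turned positive, 0.072 and 0.13, without the 4 Xist libraries and passed the test there in neither genotype.

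Ratios of reads within a library do not depend on the scaling between libraries. Hspa8 reads per Hspbp1 read ran from 19.5 to 24.4 in undisturbed WT and 22.2 to 24.3 in undisturbed AcPb-/- mice. After SD they ran from 51.5 to 74.6 in WT and from 66.2 to 84.1 in AcPb-/- mice, so that the lowest SD ratio was above the highest undisturbed one. Hsph1 reads per Hspbp1 read were 5.42 ± 0.578 (SD, n = 3) and 5.40 ± 0.518 undisturbed and 14.0 ± 1.61 and 17.7 ± 1.98 after SD, in WT and AcPb-/- mice in turn. Hspa8 per Dnajb1 read was 21.7 to 29.8 and 18.5 to 26.8 undisturbed against 44.3 to 49.7 and 43.2 to 46.8 after SD. In all 3 pairs the SD and undisturbed libraries separated, with or without the Xist libraries. For the pairs with Hspbp1 this follows from the values of the single genes, which already did not overlap, and is no separate result.

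**Figure D4:**
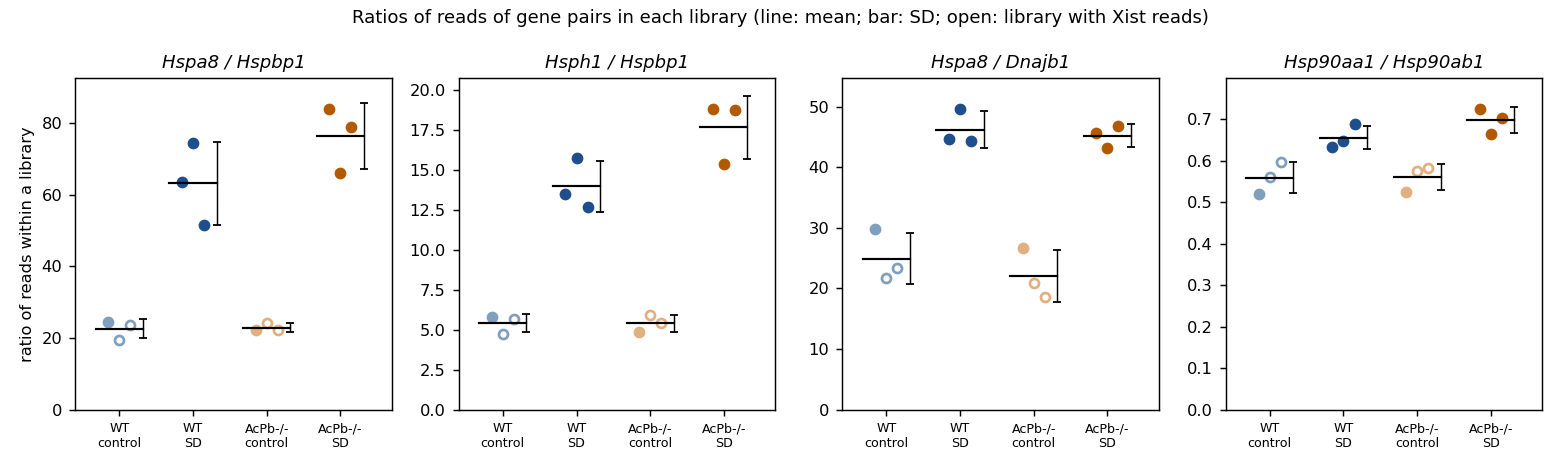
Ratio of the reads of 2 genes within each library (vertical axes from 0) by group; lines are means, bars SD and open points the control libraries with Xist reads. The ratios of Hspa8 and Hsph1 to Hspbp1, of Hspa8 to Dnajb1 and of Hsp90aa1 to Hsp90ab1 are each higher in all 6 SD libraries than in all 6 undisturbed ones.

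Both cytosolic HSP90 genes were upregulated, with the higher fold for the inducible isoform. Hsp90aa1, the inducible isoform HSP90 alpha, had normalized counts of 37429.8, 36219.8 and 39009 in undisturbed WT mice and 52137, 54484 and 57839.9 after SD. In AcPb-/- mice it had 36592, 37883 and 37074 and 66205, 53744 and 64841, with 1 SD library, replicate 3, below the other 2. The log2 fold change was 0.54 (SE 0.072, n = 3 and 3, limma adjusted p = 0.000899) in WT and 0.72 (SE 0.093, n = 3 and 3, limma adjusted p = 0.00128) in AcPb-/- mice, or 1.46-fold and 1.65-fold. Hsp90ab1, the constitutive isoform HSP90 beta, had 71927, 64536 and 65329 in undisturbed WT mice and 82368, 84220.4 and 84088 after SD. The values in AcPb-/- mice were 69852, 65876 and 63654 and 91204, 80861 and 92281. The groups did not overlap in either genotype, and the log2 fold change was 0.31 (SE 0.077, n = 3 and 3, limma adjusted p = 0.0144) in WT and 0.41 (SE 0.088, n = 3 and 3, limma adjusted p = 0.0101) in AcPb-/- mice. Hsp90aa1 reads per Hsp90ab1 read were 0.520 to 0.597 and 0.524 to 0.582 undisturbed and 0.633 to 0.688 and 0.665 to 0.726 after SD, again without overlap. The WT call for Hsp90ab1 was lost without undisturbed WT replicate 2 (adjusted p = 0.0752), without WT SD replicate 2 (0.0608) and with a term for Xist in a fit of all 4 groups (0.0838).

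Hsf1 was upregulated in both genotypes, with lower folds than Hspa8, Hsph1 and Hsp90aa1. Its normalized counts were 1922, 1914 and 1805 in undisturbed WT mice and 2494, 2524 and 2208 after SD. The counts of AcPb-/- mice were 2063, 1767 and 1730.4 and 2455, 2356 and 2367. No SD library was as low as any control, the closest being WT SD replicate 4 at 2208 and undisturbed AcPb-/- replicate 3 at 2063. The log2 fold change was 0.35 (SE 0.069, n = 3 and 3, limma adjusted p = 0.00513) in WT and 0.38 (SE 0.076, n = 3 and 3, limma adjusted p = 0.00780) in AcPb-/- mice. HSF1 is regulated mainly as a protein, by its release from chaperones and by phosphorylation, which RNA levels do not measure.

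Hspb1 encodes HSP27, a small heat shock protein that is prominent in vessel walls and reactive astrocytes, and was the gene with the fewest reads, 97 to 394 a library. Its normalized counts were 219, 176 and 194 in undisturbed WT mice and 221, 195 and 258 after SD, and 189, 171 and 207 and 196, 258 and 187 in AcPb-/- mice. The groups overlapped, and 1 SD library in each genotype stood above the other 2. The log2 fold change was 0.19 (95% interval -0.12 to 0.50, adjusted p = 0.367) in WT and 0.17 (-0.18 to 0.52, adjusted p = 0.472) in AcPb-/- mice, so a change of the size seen for Hsp90ab1 lies within these intervals. Of 10 markers of endothelial and mural cells, 4 were higher and 1 lower after SD in each genotype, where 13.2% of all genes were higher and 12.2% lower in WT and 14.1% and 13.3% in AcPb-/- mice. Their summed normalized count ran from 13548 to 14219 undisturbed and from 14206 to 17934 after SD in WT mice, and from 13767 to 14384 and 13873 to 17232 in AcPb-/- mice. The 10 markers were at 0 in no group, and their part in the values of Hspb1 was not tested.

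Leaving out the 4 control libraries with Xist reads left 1 undisturbed library in each genotype, assumed in that fit of all 4 groups to vary like the others. The directions of the 6 genes called did not change. In WT mice the log2 fold change was 0.70 (adjusted p = 0.0433) for Hspa8, 0.60 (adjusted p = 0.0603) for Hsph1, 0.55 (adjusted p = 0.0831) for Hsp90aa1 and -0.65 (adjusted p = 0.111) for Hspbp1 by limma, so that 1 of the 10 genes passed, when 687 of all genes did. Hsp90ab1 and Hsf1 were at 0.22 (adjusted p = 0.254) and 0.32 (adjusted p = 0.0915) there. In AcPb-/- mice it was 0.89 (adjusted p = 0.0228) for Hspa8, 0.98 (adjusted p = 0.0236) for Hsph1, 0.75 (adjusted p = 0.0323) for Hsp90aa1 and -0.88 (adjusted p = 0.0476) for Hspbp1, and 4 of the 10 passed, when 2097 of all genes did. Hsp90ab1 at 0.34 (adjusted p = 0.0933) and Hsf1 at 0.22 (adjusted p = 0.160) did not.

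AcPb-/- and WT mice were then compared under the same condition. In undisturbed mice 0 of the 10 genes passed limma's test and 0 reached an unadjusted p under 0.05, where 0.0197% of all genes passed and 8.53% reached that p. After SD it was again 0 and 0, where 0.0145% passed and 6.13% reached it. EdgeR and DESeq2 on the recovered reads also called 0 of the 10 in both conditions. The groups overlapped for all 10 genes in both conditions, while 14.3% of all genes undisturbed and 11.3% after SD did not overlap. In undisturbed mice the largest difference was for Hsph1, AcPb-/- minus WT -0.14 (95% interval -0.29 to 0.014, adjusted p = 0.622). After SD it was for Hspbp1, -0.24 (-0.51 to 0.031, adjusted p = 0.855).

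To compare the SD effect itself between the genotypes, limma's interaction term was taken from 1 fit over the 12 libraries, scaled together. The effect was nominally larger in AcPb-/- mice for Hsph1, by 0.24 on the log2 scale (95% interval -0.010 to 0.48, unadjusted p = 0.0589, adjusted p = 0.986). For Hsp90aa1 the difference was 0.18 (-0.072 to 0.43), for Hspa8 0.15 (-0.12 to 0.41) and for Hspbp1 -0.11 (-0.44 to 0.23). The test was passed by 0 of the 10 genes, with 0 at an unadjusted p under 0.05, and by 0.0% of all 20978 genes, with 4.0% at that p. DESeq2 and edgeR likewise called 0 of the 10, though the unadjusted p for Hsph1 was 0.0470 by DESeq2 and 0.0480 by edgeR. The intervals leave room for a difference of up to 0.48 for Hsph1, so these data do not show that the effects were equal.

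The wider chaperone network was examined through lists of related genes, each gene tested in the same fits. Among all genes tested, as given above, 13.2% were higher and 12.2% lower after SD in WT and 14.1% and 13.3% in AcPb-/- mice. Of 9 J-domain co-chaperones other than Dnajb1, 6 were upregulated in WT and 7 in AcPb-/- mice and 0 were downregulated. Their median log2 fold change was 0.31 and 0.42. Dnajb1, which is not in this list, passed the test in neither genotype, as given above. Dnajb5 changed most, with 0.94 in WT (adjusted p = 0.00166) and 0.89 in AcPb-/- mice (adjusted p = 0.00327). Dnajb6, which suppresses aggregation of polyglutamine proteins, had 0.48 in WT (adjusted p = 0.00328) and 0.74 in AcPb-/- mice (adjusted p = 0.00102), and Dnajc7, which links HSP70 to HSP90, had 0.54 in WT (adjusted p = 0.000740) and 0.61 in AcPb-/- mice (adjusted p = 0.000610). Of the 11 nucleotide exchange factors and other HSP70 cofactors, which include Hsph1 and Hspbp1, 5 rose and 2 fell in WT and 4 rose and 2 fell in AcPb-/- mice. Stip1, the adaptor that passes clients from HSP70 to HSP90, had normalized counts of 7164 ± 417 undisturbed and 11527 ± 559 after SD in WT mice and a log2 fold change of 0.69 in WT (adjusted p = 0.000253) and 0.87 in AcPb-/- mice (adjusted p = 0.000444). Bag2 had 0.57 in WT (adjusted p = 0.00344) and 0.31 in AcPb-/- mice (adjusted p = 0.0511), and Bag3, which steers clients to autophagy, had 0.30 in WT (adjusted p = 0.116) and 0.54 in AcPb-/- mice (adjusted p = 0.0382).

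Of 14 HSP90 co-chaperones, 7 rose and 1 fell in WT, where 13.2% of all genes were higher and 12.2% lower, and 8 rose and 2 fell in AcPb-/- mice, where 14.1% were higher and 13.3% lower. The medians of this list were 0.17 and 0.25. Chordc1 led with 0.60 in WT (adjusted p = 0.00119) and 0.89 in AcPb-/- mice (adjusted p = 0.000444), followed by Stip1, which is in both lists, and the cyclophilin gene Ppid with 0.48 in WT (adjusted p = 0.00102) and 0.62 in AcPb-/- mice (adjusted p = 0.000916). Of 8 other HSP70 and HSP110 genes, 0 rose and 1 fell in WT and 2 rose and 1 fell in AcPb-/- mice. The HSP110 genes Hspa4 and Hspa4l had 0.21 in WT (adjusted p = 0.0572) and 0.38 in AcPb-/- mice (adjusted p = 0.00344) and 0.16 in WT (adjusted p = 0.10) and 0.42 in AcPb-/- mice (adjusted p = 0.00108), and the difference between genotypes passed the test for 0 of the 8. Hspa12a, a distant HSP70 relative, fell in both, with -0.31 in WT (adjusted p = 0.00593) and -0.24 in AcPb-/- mice (adjusted p = 0.0190). Of 8 other small heat shock protein genes, Hspb8, the partner of BAG3, was the only one called, with 0.36 in WT (adjusted p = 0.00773) and 0.38 in AcPb-/- mice (adjusted p = 0.0139). Of 5 genes of other heat shock factors and binding proteins, Hsf4 was the only one called and fell, with -0.29 in WT (adjusted p = 0.0311) and -0.42 in AcPb-/- mice (adjusted p = 0.0288).

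**Figure D5:**
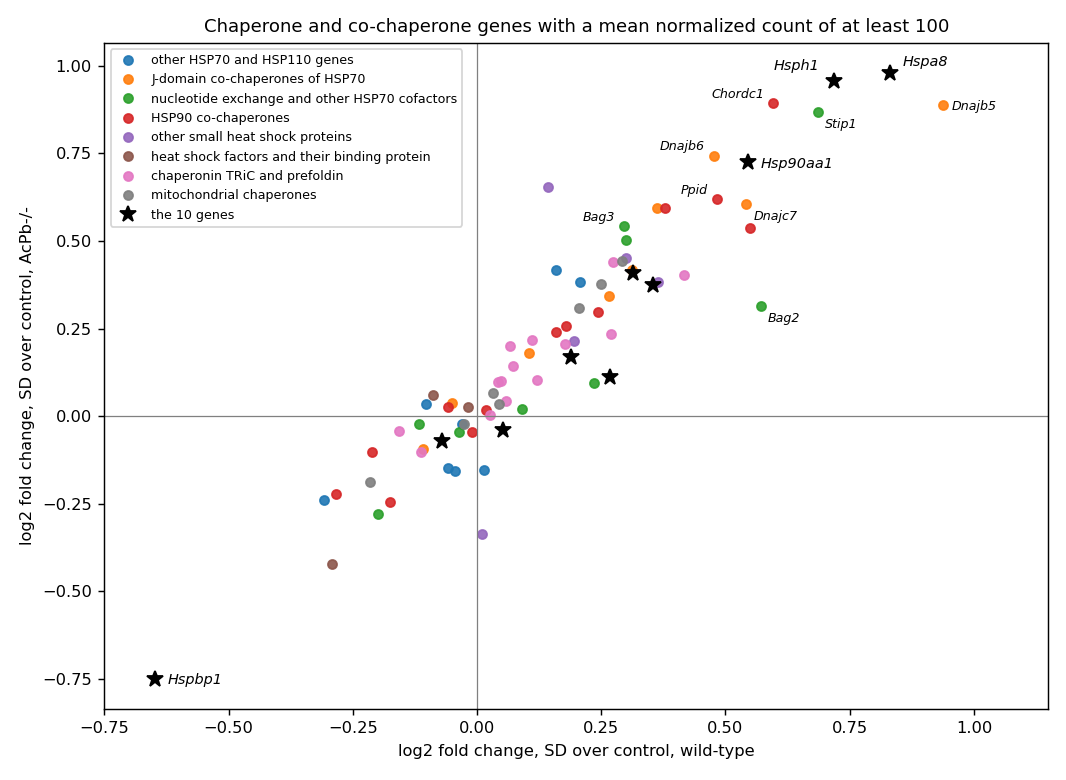
Log2 fold change of SD over control in WT mice (horizontal axis) and AcPb-/- mice (vertical axis) for chaperone and co-chaperone genes whose normalized counts averaged 100 or more, colored by list, with the 10 genes as stars. Dnajb5, Stip1 and Chordc1 lie beside Hspa8, Hsph1 and Hsp90aa1 at the upper right, and Hspbp1 stands apart at the lower left; the 2 axes rest on different libraries.

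Chaperones of 2 other folding systems were counted in the same way, against 13.2% of all genes higher in WT and 14.1% in AcPb-/- mice. Of 14 subunits of the chaperonin TRiC and of prefoldin, which fold actin and tubulin, 4 rose in WT and 5 in AcPb-/- mice and 0 fell. The largest were Pfdn5 with 0.42 in WT (adjusted p = 0.00418) and 0.40 in AcPb-/- mice (adjusted p = 0.00182), Cct6a with 0.27 in WT (adjusted p = 0.0191) and 0.44 in AcPb-/- mice (adjusted p = 0.00206) and Pfdn2 with 0.27 in WT (adjusted p = 0.0180) and 0.23 in AcPb-/- mice (adjusted p = 0.0363). Of 7 mitochondrial chaperones, 2 rose in WT and 3 in AcPb-/- mice and 0 fell. Hspd1, which encodes HSP60, had 0.29 in WT (adjusted p = 0.0106) and 0.44 in AcPb-/- mice (adjusted p = 0.00286), and the mitochondrial HSP70 gene Hspa9 had 0.25 in WT (adjusted p = 0.0201) and 0.38 in AcPb-/- mice (adjusted p = 0.00647). The HSP60 cofactor Hspe1 had 0.21 in WT (adjusted p = 0.0767) and 0.31 in AcPb-/- mice (adjusted p = 0.0182). The medians were 0.069 and 0.12 for TRiC and prefoldin and 0.045 and 0.066 for mitochondria. In either direction, 25.4% of all genes were called in WT and 27.4% in AcPb-/- mice. The counts of both lists in WT mice were near that share, but all genes called were higher, where the share was 13.2%. In AcPb-/- mice the 5 of 14 and 3 of 7 called were also all higher, where the share was 14.1%.

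The genes whose pattern over the 12 libraries was most like that of 3 of the genes were sought among 13121 genes whose normalized counts averaged 100 or more, by Pearson's r of log2 values, which reflects mainly the 2 conditions and is given as a description. For Hsph1 they were Pdia3 (0.998), Hsp90b1 (0.997), Stip1 (0.992). Pdia3 and Hsp90b1 encode chaperones of the endoplasmic reticulum and Stip1 the cytosolic adaptor described above. For Hspbp1 they were Ntmt1 (0.987), Dap3 (0.986), Sephs2 (0.980), which encode an N-terminal methyltransferase, a mitochondrial ribosome protein and a selenophosphate synthetase. For Hsf1 they were Abcc5 (0.982), Creb3l1 (0.978), Sh3rf3 (0.977).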

How the data were processed

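Total RNA of somatosensory cortex was sequenced from TruSeq stranded mRNA libraries. The authors' processing notes name bcl2fastq, HISAT2 2.2.1, featureCounts, DESeq2 1.31.16 and mm10, while the methods of the study name another counter; the annotation and strand setting are not given in the sources used here. The deposited signal is, per gene and library, a read count that the authors divided by a size factor within each 2-group table. The authors' own fold changes and p-values fill the other columns and were not used. The size factors were undone, and 100.0% of 732630 values came within 0.01 of a whole read.

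Per-library values in the text come from the recovered reads of all 12 libraries normalized together by DESeq2 size factors. Tests used the deposited tables: limma 3.58.1 (R 4.3.3) on log2(value + 1) with trended variances, for each gene with any read in that table, adjusted by Benjamini-Hochberg, with 4 residual degrees of freedom, and 8 for the interaction over 12 libraries. The fold changes of both scalings differed by at most 0.0028. Fold changes of low genes are understated on this scale. EdgeR 4.0.16 on the recovered reads called 5368 genes in WT and 5682 in AcPb-/- mice after SD, and DESeq2 1.42.0 5378 and 5820, against 5186 and 5633 by limma. Alternatives were other pseudocounts, a filter on low means, thinned reads, an Xist term, a replicate block and leaving out libraries. TPM used exon lengths of GENCODE M21, matched by symbol for 95.7% of genes.

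The members and lists were chosen with earlier results of these data known. All 10 members are named, as are the 3 genes of each list with the largest change among those called in either genotype with a mean of at least 100, and the 3 genes most like Hspbp1, Hsph1 and Hsf1. The labels describe the samples as separate mice. Replicate libraries differed by more than sampling noise. Scripts were tested on simulated data.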

Additional observations from a re-analysis of the deposited data

How the results depend on the processing

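The 6 genes called after SD were called in both genotypes with edgeR, DESeq2, a mean of at least 10, pseudocounts of 10 and 0.1, all 4 groups in 1 fit and thinned reads. A term for Xist left 5 in WT mice, all but Hsp90ab1, and 6 in AcPb-/- mice. Leaving out 1 library gave 5 to 6 in WT and 6 each time in AcPb-/- mice, and 2699 to 6222 and 3393 to 5412 of all genes. The alternative without the 4 Xist libraries was chosen after seeing the data and called 1 of the 10 genes in WT and 4 in AcPb-/- mice, and 687 and 2097 of all genes. It also called 0 genes in both comparisons of genotypes.

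Replicate numbers in the labels say nothing of a shared litter or day. The replicate block called 0 of the 10 genes and 0 of all genes in both SD comparisons and 0 genes between genotypes after SD. In each SD comparison only 2 numbers hold both an undisturbed and an SD library. The block fit thus rests on 2 pairs, too few for its 0 calls to decide whether SD had an effect. In it 6889 genes in WT and 4662 in AcPb-/- mice still reached an unadjusted limma p under 0.05. Without the block these counts were 7613 and 7996. Deviations of same-numbered libraries correlated between -0.0959 and 0.0756 over the 2 shared numbers of each SD comparison and between 0.287 and 0.358 between genotypes after SD, the highest values there. With 2 pairs each and no label of a shared source, the numbers were not taken to pair the samples, and whether they mark anything shared was not settled. No paired analysis was possible in undisturbed mice because the genotypes share only 1 number.

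Between genotypes, 4 genes in all passed undisturbed and 3 after SD. Undisturbed, edgeR called 8, DESeq2 104, a pseudocount of 10 0, 1 fit of all groups 8, the Xist term 7, thinned reads 0 and leaving out 1 library 0 to 168. After SD, edgeR called 9, DESeq2 99, 1 fit of all groups 5, the Xist term 13 and leaving out 1 library 0 to 4. The interaction, with 0 genes called, gave 1 with DESeq2 and 0 to 9 leaving out 1 library. None of these alternatives called 1 of the 10 genes, and the cause of the differences was not tested.

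With the longest transcript as the length, levels in undisturbed WT mice were 8.66 TPM for Hspa1a, 8.96 TPM for Hspa1b, 254 TPM for Hsph1, 141 TPM for Hspbp1, 68.1 TPM for Dnajb1, 871 TPM for Hsp90aa1, 2029.8 TPM for Hsp90ab1, 16.1 TPM for Hspb1, 45.6 TPM for Hsf1, with the order of the genes as before.

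Log2 differences of genes not called, or not called in that comparison, changed sign under some alternatives. With the Xist term they were, for SD in WT Dnajb1 0.10, and SD in AcPb-/- Hspa1a 0.036, Dnajb1 0.098. Without the 4 Xist libraries they were, for SD in WT Hspa1a -0.059, Dnajb1 0.072, and SD in AcPb-/- Hspa1a 0.23, Dnajb1 0.13, and AcPb-/- against WT undisturbed Hspa1b -0.10, Hsf1 0.10, and interaction Hspa1a 0.29, Dnajb1 0.062, Hspb1 0.14, Hsf1 -0.11. With thinned reads they were, for SD in WT Hspa1a -0.036, and AcPb-/- against WT after SD Hspb1 0.040, Hsf1 0.0012, and interaction Hspa1a 0.011, Dnajb1 0.050, Hspb1 0.10. With the replicate block they were, for SD in WT Hspa1a -0.0067, and SD in AcPb-/- Hspa1a 0.094, and AcPb-/- against WT after SD Hsf1 0.029, and interaction Hspa1a 0.041, Dnajb1 0.11, Hspb1 0.071, Hsf1 -0.10. Leaving out 1 library, the ranges were, for SD in AcPb-/- Hspa1a -0.18 to 0.072. They were, for AcPb-/- against WT undisturbed Hsf1 -0.11 to 0.022, Hsp90aa1 -0.040 to 0.012, Hsp90ab1 -0.056 to 0.033, Hspa1a -0.14 to 0.10, Hspa1b -0.011 to 0.13, Hspb1 -0.13 to 0.027. They were, for AcPb-/- against WT after SD Hsf1 -0.068 to 0.027, Hspa1b -0.19 to 0.027, Hspb1 -0.22 to 0.027. They were, for interaction Dnajb1 -0.11 to 0.064, Hsf1 -0.044 to 0.097, Hspa1a -0.23 to 0.017, Hspb1 -0.17 to 0.081, Hspbp1 -0.21 to 0.035. The cause of these sign changes was not tested. Depth limits Hspb1, Hspa1a and Hspa1b most, with at most 708 reads a library.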

Other observations

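The same measure of likeness was read for other members after their values were seen, over the same 12 libraries and 13121 genes and as a description. For Hspa8 the closest genes were Calr (0.997), Stip1 (0.994), Hsp90b1 (0.992). Calr encodes calreticulin, like Hsp90b1 a chaperone of the endoplasmic reticulum. Of the genes not called after SD, Hspb1 and Hspa1b had lower values. For Hspb1 the closest were Adgrl4 (0.894), Ehd2 (0.875), Magt1 (0.842) and for Hspa1b Ramp2 (0.916), Ppp1r37 (0.893), Tgm2 (0.871). Adgrl4 and Ramp2 are known as genes of endothelial cells. Between members, Hspa8 had an r of 0.987 with Hsph1, -0.895 with Hspbp1 and -0.067 with Hspa1a.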
